A study of Homo sapiens with 16 samples.

Results

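The step from day 2 to day 4 of HCF-2 WT synthesis was examined in 4 of the 16 RNA-seq libraries of the series, the 2 libraries of day 4 set against the 2 libraries of day 2, chosen by the cell line and day in their labels. All 16 libraries hold poly(A) RNA of HEK-293 cells, an embryonic kidney line, in the Flp-In T-REx form, in which a coding sequence placed at 1 fixed genomic site is switched on by doxycycline. The cells of this comparison carried Flag-Cherry-HCF-2 WT and had received doxycycline for 2 or 4 days (1 μg/ml in the treatment label, 1 ul/ml in the design text) in medium with tetracycline-free serum. A second line carried Flag-Cherry-HCF-2 Fn3nc*, in which the pairing of the Fn3n and Fn3c segments of HCF-2 is altered, and was sampled on the same days. Each line is a single selected line, all libraries analysed here come from cells given doxycycline, and cells without the transgene were not analysed here. Induction was done in duplicate in each line, so the p-values reflect the spread between duplicate inductions of 1 line.

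HCF-2 is a vertebrate relative of HCF-1, a nuclear protein that tethers histone methyltransferases and other regulators to promoters and is needed for cell division. HCF-2 has the Kelch and fibronectin type 3 segments of HCF-1 but is found largely in nucleoli, where ribosomes are assembled. Several stress programmes recur below. NF-kB is held in the cytoplasm by inhibitors that it induces itself, ATF4 is translated when the initiation factor eIF2 is phosphorylated and induces amino acid synthesis and transport, and the immediate-early factors are transcribed without new protein synthesis when a signal reaches the nucleus.

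The 4 libraries held 22304210 to 25709232 expected counts, estimates that share ambiguous reads among genes. The library of day 4 replicate 2 stood apart. It had counts for 36342 genes, against 26334 to 27972 in the other 3, and the 2 day 4 libraries differed more than the duplicates of any other group, with a chi-square per gene of 18.0 against 8.99 on day 2. Levels below are CPM, counts scaled by library size and TMM factors over all 16 libraries, and are always given as replicate 1 followed by replicate 2. HCFC2, which reports the sum of the endogenous gene and the transgene, stood at 947 and 980.3 CPM on day 2 and at 1149.8 and 1065 CPM on day 4. This difference of 0.20 ± 0.08 (SE) on the log2 scale did not pass the test (edgeR adjusted p = 0.103), so the level of the induced mRNA was not shown to differ between the days compared. The 8 HEK-293 markers summed to 1449 and 1433 CPM on day 2 and to 1493 and 1399.9 CPM on day 4, without a call among the 7 tested, 3 of them at an unadjusted p under 0.05 and none called by DESeq2. Blood, endothelial, fibroblast and hepatocyte markers summed to at most 12.7 CPM in any of the 4 libraries and squamous markers to at most 14.5 CPM, almost all of it KRT10. The 13 mitochondrially encoded mRNAs followed the library that stood apart, with a median log2 fold change of 0.36 from day 2 to day 4 but of -0.54 without day 4 replicate 2, and are not described further.

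Between day 2 and day 4, 1066 genes rose (5.63% of the 18925 tested) and 425 fell (2.25%), at an adjusted p under 0.05 by edgeR's quasi-likelihood test and a log2 fold change beyond 0.5. The rises had the larger median change. Their median was 0.80 (quartiles 0.63 and 1.10) and 337 exceeded 1 log2 unit, whereas the falls had a median of -0.62 (quartiles -0.74 and -0.55) and 45 exceeded 1 unit. The falls were of more abundant genes, with a median of the mean counts of 679 against 162 for the rises. Genes with low counts need a larger change to be called, and the part of this in the medians was not tested. With an FPKM above 1 required in every HCF-2 WT library, 724 of the rises and 336 of the falls were still called. The median log2 fold change over all tested genes was 0.01. In all 1066 rises both day 4 libraries lay above both day 2 libraries, and in 424 of 425 falls both lay below. The genes were called on these same libraries, so this separation follows largely from the selection and adds no support. In bulk RNA, fewer cells of a type and less RNA per cell cannot be told apart.

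**Figure D1:**
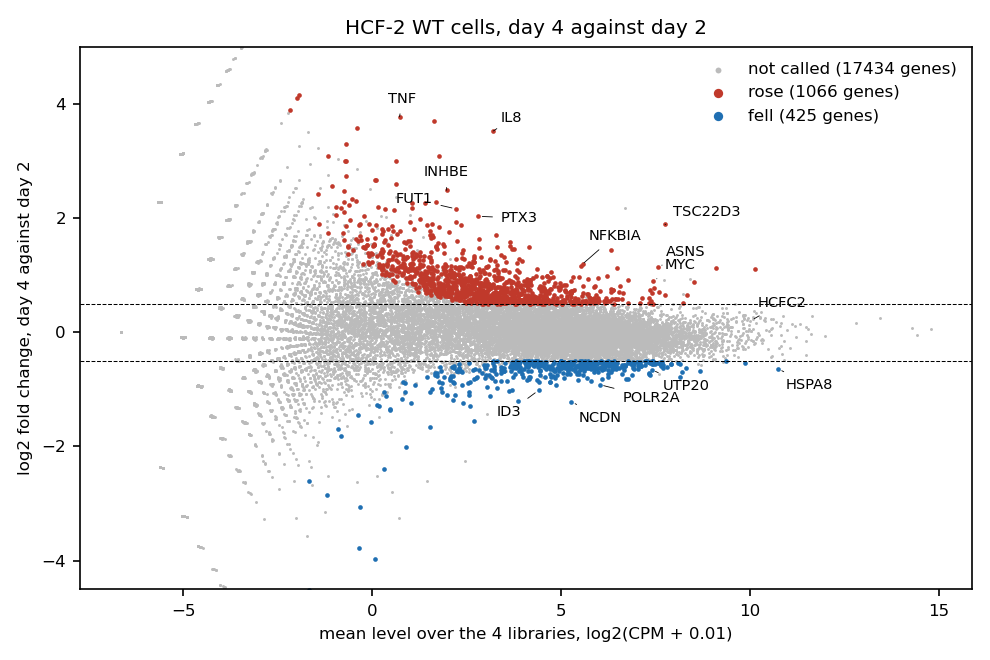
Log2 fold change of each gene from day 2 to day 4 in HCF-2 WT cells (vertical axis) against its mean level over the 4 libraries as log2(CPM + 0.01) (horizontal axis), with the 1066 rises in red, the 425 falls in blue and the call minimum dashed; 68 genes, 13 of them called, lie outside the axes. Within the axes most rises lie at lower levels than most falls, with medians of the mean counts of 162 and 679.

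The number of calls depended on single libraries. Without day 2 replicate 1, 408 genes rose and 206 fell; without day 2 replicate 2 the numbers were 623 and 362. Without day 4 replicate 1 they were 1122 and 320, and without day 4 replicate 2, the library that stood apart, 1043 and 918. Of the rises, 312 were called in all of these 4 fits, and 113 of the falls. The falls moved with base composition. The median GC content of the longest transcript was 56.5% for the genes that fell, 49.1% for those that rose and 47.6% for all tested genes. Among the 11844 genes that averaged at least 100 counts, the fifth with the highest GC held 181 falls and 153 rises, and the fifth with the lowest GC held 6 falls and 121 rises. Duplicates also differed by GC, with a Spearman correlation across genes of 0.70 between GC and the log2 ratio of replicate 2 to replicate 1 on day 4, and of -0.37 on day 2. When the GC trend of each library was removed, an alternative chosen after seeing the data, 1270 genes rose and 334 fell, 293 of which were among the 425.

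**Figure D2:**
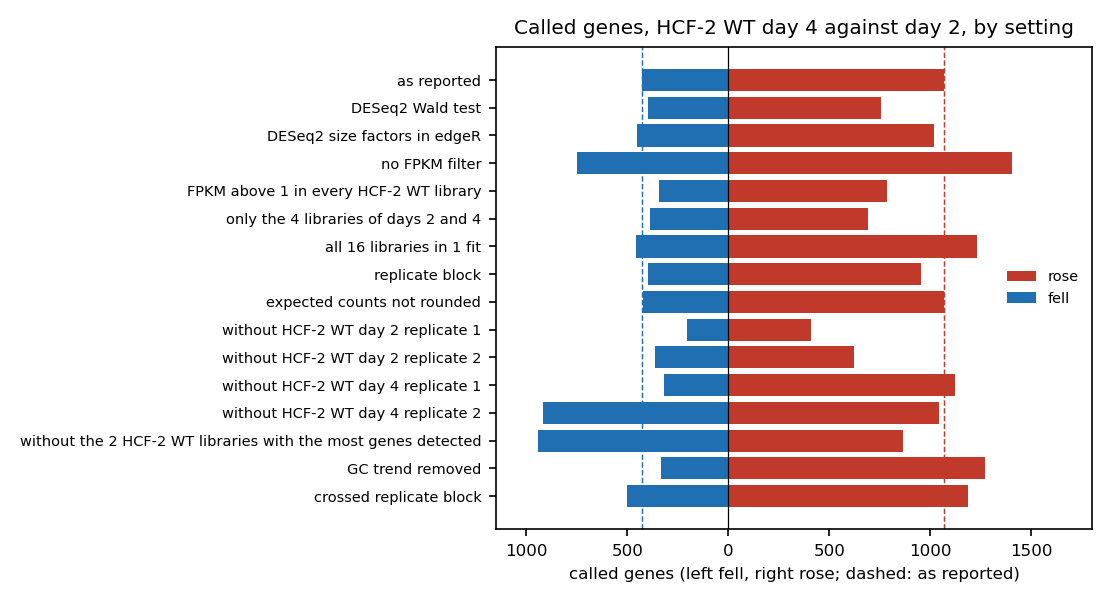
Number of genes called from day 2 to day 4 in HCF-2 WT cells, fallen to the left and risen to the right of 0, for the fit as reported (top, dashed lines) and each alternative that kept the fold minimum. Rises range from 408 to 1406 and falls from 206 to 942.

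Targets of NF-kB, the factor that drives inflammatory genes, were among the strongest risers. Of 28 tested members of the list of NF-kB subunits and targets, 13 rose and the other 15 were not called, with a median of 0.58 over the list, and leaving out any of the 4 libraries gave 11 to 13 rises. Members low on day 2, TNF among them, were tested only because a single library with an FPKM above 1 sufficed. With an FPKM above 1 required in every HCF-2 WT library, 5 of 18 rose and the median was 0.15. IL8 (CXCL8; chromosome 4, 74606236 to 74609433, GRCh37), a chemokine that draws neutrophils, stood at 1.49 and 1.45 CPM on day 2 and at 22.2 and 11.9 CPM on day 4. The day 4 libraries differed from each other, but both were far above day 2. IL8 rose 11.5-fold (log2 fold change 3.53 ± 0.30, edgeR adjusted p = 0.000151). TNF (chromosome 6, 31543342 to 31546113), the cytokine that itself activates NF-kB, went from 0.249 and 0.187 CPM to 3.51 and 2.65 CPM. At this low level it was still 13.7-fold higher on day 4 (3.78 ± 0.35, adjusted p = 0.000235).

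The inhibitors of the pathway rose with its effectors. NFKBIA (chromosome 14, 35870285 to 35873955), which retains NF-kB in the cytoplasm, was at 28.2 and 28.6 CPM on day 2 and at 71.1 and 56.8 CPM on day 4 (1.17 ± 0.11, adjusted p = 0.000235). TNFAIP3, the deubiquitinase A20 that shuts off the upstream kinase, was at 6.38 and 6.64 CPM and then at 22.0 and 15.2 CPM (1.51 ± 0.17, adjusted p = 0.000522). In IL8, NFKBIA and TNFAIP3 the lower day 4 value was that of replicate 2. IER3, a survival gene induced by NF-kB and by ERK, rose from 9.70 and 8.93 CPM to 23.8 and 20.7 CPM (1.25 ± 0.14). PTX3, a secreted pentraxin of innate immunity that was not on the list, rose from 2.90 and 2.57 CPM to 13.8 and 8.68 CPM (2.03 ± 0.22). Of the subunits of the factor, RELB (log2 fold change 1.85) and NFKB2 (0.89) rose, while RELA had -0.38 and NFKB1 0.15, neither of them called.

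The promoters of these genes were searched for the NF-kB site in the 250 bases before and 50 bases after the start of transcription, in RefSeq sequences of GRCh38.p14 and on both strands. The motif was chosen with results of these data known. Of the 10 risers of the list with a promoter in the table, 6 held a site. The shares were 10.8% of all 27305 promoters, 13.0% of those of tested genes and 16.7% of those of all risers. The list is of known targets of the factor, so a high share can follow from its choice alone. The share among members that did not rise was not taken. The sites are shown because they belong to the risers described here, 1 for each gene. Each is given as 30 bases read 5′ to 3′ on the strand of the gene, with the site shown in capitals. They lie at chr14:35404811-35404840 (minus strand, NFKBIA), chr6:137867182-137867211 (plus, TNFAIP3), chr4:73869304-73869333 (plus, CXCL1), chr4:74099254-74099283 (minus, CXCL2), chr4:74038749-74038778 (minus, CXCL3) and chr11:102317275-102317304 (plus, BIRC3).
NFKBIA: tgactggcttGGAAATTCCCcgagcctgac
TNFAIP3: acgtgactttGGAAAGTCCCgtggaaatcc
CXCL1: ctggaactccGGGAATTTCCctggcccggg
CXCL2: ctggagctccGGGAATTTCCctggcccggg
CXCL3: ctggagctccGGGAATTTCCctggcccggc
BIRC3: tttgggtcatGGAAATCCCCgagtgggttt
The 3 chemokine genes CXCL1, CXCL2 and CXCL3, neighbours of IL8 on chromosome 4, carry the same 10 bases. Their log2 fold changes were 2.26, 1.98 and 1.78, and that of BIRC3, an inhibitor of apoptosis, was 1.31. Further matches, not in capitals, began at -55 bases from the start of transcription in TNFAIP3 and at -135 in BIRC3. That of TNFAIP3 lies partly in the lower case of its window. In CXCL1, CXCL2 and CXCL3 a further match overlapped the site shown. A match describes the sequence and does not show that the factor was bound.

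The amino acid response was the list with the highest share of rises. Of 25 tested ATF4 targets and related genes, 15 rose, 1 fell and 9 were not called, with a median of 0.60, and 12 to 14 rose when any of the 4 libraries was left out. With an FPKM above 1 required in every HCF-2 WT library, 14 of 24 rose and the median was 0.58. ASNS (chromosome 7, 97480989 to 97501854), asparagine synthetase, was at 113 and 125 CPM on day 2 and at 281 and 243 CPM on day 4, a 2.2-fold rise (1.14 ± 0.10, edgeR adjusted p = 0.00016). STC2, a secreted glycoprotein induced by ER stress, was at 51.8 and 47.4 CPM and then at 101 and 95.6 CPM (0.99 ± 0.09, adjusted p = 0.00016). DDIT4, an inhibitor of mTORC1, rose from 34.9 and 36.8 CPM to 66.5 and 70.6 CPM. In each of these genes the spread between duplicates was small beside the step between days.

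The rise took in factors as well as enzymes. CEBPB, a partner of ATF4, rose from 9.16 and 9.07 CPM to 19.3 and 19.5 CPM (1.09 ± 0.12). The exchanger of cystine for glutamate, SLC7A11, rose from 55.1 and 63.6 CPM to 104 and 97.0 CPM (0.76 ± 0.09). ATF5, a factor translated under the same control as ATF4, went the other way, from 14.1 and 13.3 CPM to 7.36 and 7.87 CPM (-0.85 ± 0.12, adjusted p = 0.00141). ATF4 mRNA had a log2 fold change of 0.43, below the minimum, and the serine pathway genes PHGDH (0.21) and SHMT2 (0.35) were not called. Genes off the list that act in the same metabolism were among the 14 largest rises. They were PCK2, which makes phosphoenolpyruvate in mitochondria (8.91 and 9.58 CPM, then 24.7 and 27.5 CPM), ALDH1L2, an enzyme of mitochondrial folate (4.02 and 3.46 CPM, then 9.46 and 11.3 CPM), and SLC6A9, a glycine transporter (4.93 and 5.42 CPM, then 13.2 and 16.0 CPM). The log2 fold changes of PCK2, ALDH1L2 and SLC6A9 were 1.5 ± 0.15, 1.47 ± 0.17 and 1.5 ± 0.18.

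Of the 12 risers of this list with a promoter in the RefSeq table, 2 held the element TGATGNAA, which pairs ATF4 with a C/EBP factor, and 10 held a CCAAT box (CCAAT). Over all promoters these shares were 3.67% and 35.7%, over tested genes 1.65% and 37.0%, and over all risers 1.88% and 31.5%. This element was also chosen with results known, and a list of ATF4 targets can hold it by choice alone. The 2 sites, at chr7:97872458-97872487 (minus strand, ASNS) and chr15:40953251-40953280 (plus strand, CHAC1, where the element reads on the other strand), are shown in capitals, as the ATF4 elements of genes that rose.
ASNS: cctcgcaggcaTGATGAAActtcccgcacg
CHAC1: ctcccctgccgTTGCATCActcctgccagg
CHAC1, which breaks down glutathione, had a log2 fold change of 1.39.

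Of 30 immediate-early factors tested, 12 rose and 18 were not called, with a median of 0.46. The number fell to 7 without day 2 replicate 2 and was 8 or 9 without each of the others, and with an FPKM above 1 in every HCF-2 WT library 9 of 22 rose with a median of 0.30. ATF3, a stress factor of the bZIP family, was at 27.7 and 26.4 CPM on day 2 and at 57.6 and 48.4 CPM on day 4 (0.97 ± 0.10, adjusted p = 0.00045). MYC, which drives growth and ribosome production, was at 123 and 119 CPM and then at 216 and 237 CPM (0.90 ± 0.11, adjusted p = 0.000732). EGR1, a zinc finger factor induced through ERK, went from 5.10 and 3.23 CPM to 10.8 and 10.2 CPM (1.33 ± 0.20). In none of the 3 did the libraries of the 2 days overlap. FOS (1.17), FOSB (1.00), JUNB (0.57) and JUND (0.55), parts of the AP-1 factor, were also called, while JUN (0.49) was not.

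The lowest adjusted p of all genes was that of TSC22D3 (chromosome X, 106956451 to 107020572), which encodes GILZ, a repressor of inflammatory transcription induced by glucocorticoids and FOXO factors. It stood at 85.9 and 98.0 CPM on day 2 and at 344 and 338 CPM on day 4, 3.71-fold higher (1.89 ± 0.11, edgeR adjusted p = 2.44e-05). Its duplicates nearly coincided on day 4. The list of FOXO, TSC22 and glucocorticoid-linked genes held 8 rises among 31 tested and no call in the other 23, with a median of 0.17, and 5 rises without day 2 replicate 1. Its other risers included the arrestin-like proteins ARRDC4, from 28.3 and 30.3 CPM to 69.6 and 64.5 CPM (1.19 ± 0.09), and TXNIP, from 9.58 and 11 CPM to 19 and 18.8 CPM (0.88 ± 0.11), both of which restrain glucose uptake. The glucocorticoid targets FKBP5 (-0.16) and PER1 (-0.26), chosen after their values were seen, were not called. Among 29 tested p53 targets 3 rose and 1 fell (5 rises without day 4 replicate 2, 3 falls without day 4 replicate 1). GADD45A, a damage-response gene also induced by ATF4, rose from 15.7 and 17.1 CPM to 29.7 and 26.9 CPM (0.79 ± 0.10), whereas BAX, the pro-apoptotic pore protein, fell from 35.6 and 32.8 CPM to 18.0 and 19.2 CPM (-0.88 ± 0.10, adjusted p = 0.000593). CDKN1A (0.35) and MDM2 (-0.30), the best known p53 targets, were not called.

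**Figure D3:**
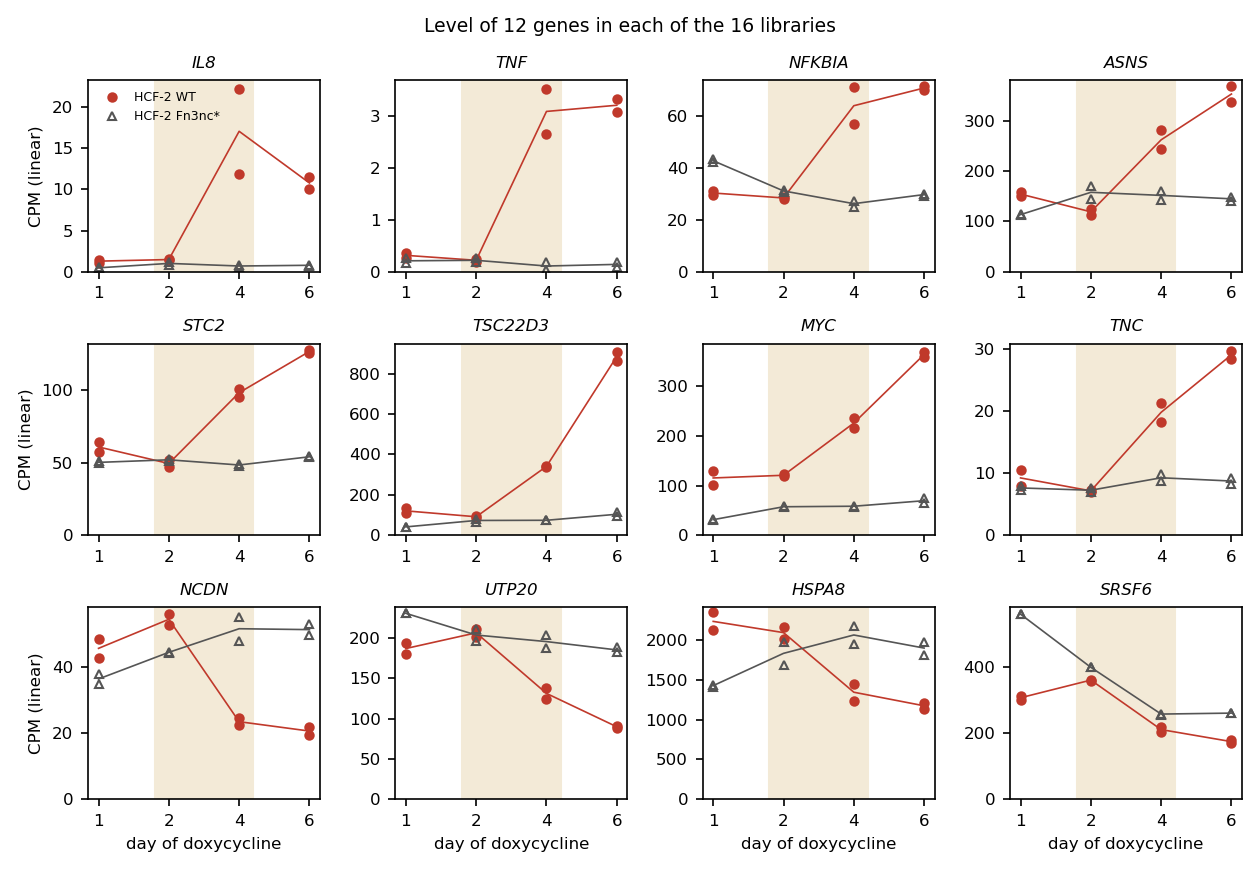
CPM of 12 genes (vertical axes, linear and from 0) in each library by day of doxycycline (horizontal axes), with HCF-2 WT as red circles, HCF-2 Fn3nc* as open triangles, lines through the means of duplicates and days 2 to 4 shaded. In HCF-2 WT the 8 genes of the upper rows lie higher, and the 4 of the lowest row lower, on day 4 than on day 2, with no overlap of libraries.

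Genes of the extracellular matrix made up the longest list of rises. Of 53 tested matrix glycoproteins and remodelling enzymes, 17 rose and 1 fell, with a median of 0.43, and of 26 collagens 10 rose and 16 were not called, with a median of 0.40. With an FPKM above 1 required in every HCF-2 WT library, 11 of 34 matrix genes and 3 of 16 collagens rose, with medians of 0.33 and 0.34. Both counts also leaned on single libraries. Without day 2 replicate 1, 8 matrix genes and 5 collagens rose, without day 2 replicate 2 the counts were 11 and 6, and without day 4 replicate 2 they were 11 and 7. TNC (chromosome 9, 117781854 to 117880486), the glycoprotein tenascin C of remodelling tissue, was at 6.96 and 7.39 CPM on day 2 and at 21.4 and 18.3 CPM on day 4 (1.47 ± 0.14, adjusted p = 0.000294). ADAMTS1, a protease that cleaves matrix proteoglycans, was far more abundant, at 259.6 CPM in both day 2 libraries and at 463 and 495 CPM on day 4 (0.88 ± 0.08, adjusted p = 0.00016). TIMP3, an inhibitor of such proteases, rose from 39.4 and 40.6 CPM to 65.9 and 61.1 CPM (0.67 ± 0.09). The list thus rose in both a protease and an inhibitor of proteases, and its 1 fall was EMILIN1, an elastic fibre glycoprotein, whose call was lost without day 2 replicate 1, day 2 replicate 2 or day 4 replicate 1.

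The collagens that rose were mostly fibril-associated or basement membrane chains and others of low abundance. COL21A1, a fibril-associated collagen, was at 8.08 and 10.4 CPM and then at 18.7 and 17.9 CPM (0.99 ± 0.13), and COL12A1, of the same class, at 1.74 and 2.10 CPM and then at 6.16 and 4.83 CPM (1.51 ± 0.20). COL4A6, a basement membrane chain, rose from 20.9 and 22.9 CPM to 34.4 and 34.9 CPM (0.66 ± 0.10), and COL4A3, another such chain, from 6.05 and 4.30 CPM to 9.76 and 11.5 CPM (1.03 ± 0.17). COL1A1, a chain of the main fibrillar collagen, had -0.05 and was not called. DDR2, a receptor kinase that binds collagen, was among the 14 largest rises, at 2.32 and 2.01 CPM on day 2 and 8.17 and 7.79 CPM on day 4 (1.87 ± 0.15, adjusted p = 0.000151).

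Surface and signalling genes gave smaller groups. Of 17 tested cadherins and protocadherins 4 rose and 1 fell (2 rises without day 2 replicate 1). CDH3, the adhesion protein P-cadherin, rose from 4.81 and 6.50 CPM to 12.2 and 14.7 CPM (1.26 ± 0.16), and PCDH7 fell from 202 and 198 CPM to 116 and 128 CPM (-0.71 ± 0.08, adjusted p = 0.000593). Of 10 glypicans and syndecans 3 rose, among them GPC3, a glypican that binds growth factors, from 16.7 and 16.4 CPM to 32.6 and 27.6 CPM (0.86 ± 0.11). The TGF-beta and BMP list held 8 rises and 2 falls among 42 (5 rises without day 2 replicate 2, and 4 among 36 with an FPKM above 1 in every HCF-2 WT library). The activin subunit INHBE, also known as an ATF4 target, rose from 1.29 and 1.08 CPM to 6.63 and 6.70 CPM (2.49 ± 0.19, adjusted p = 7.61e-05), and the BMP antagonist NOG from 0.912 and 0.982 CPM to 2.95 and 3.74 CPM (1.82 ± 0.25). ID3, a helix-loop-helix inhibitor that BMP signalling induces, fell from 28.4 CPM in both day 2 libraries to 13.3 and 14.8 CPM (-1.02 ± 0.10, adjusted p = 0.000294). ID1, a relative under the same control, had -0.81 ± 0.17 with its call lost without day 2 replicate 1 (adjusted p = 0.103), and ID4 rose (0.58 ± 0.08).

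Among glycolysis and hypoxia genes 7 of 33 rose, and 5 without day 2 replicate 1 or day 4 replicate 1. NDRG1, a differentiation gene induced by hypoxia, rose from 56.5 and 55.7 CPM to 131 and 113 CPM (1.12 ± 0.10, adjusted p = 0.00016), and SLC2A3, a glucose transporter, from 8.33 and 8.23 CPM to 15.8 and 14.6 CPM (0.88 ± 0.12). The glycolytic enzymes GAPDH (-0.09), LDHA (-0.14) and PKM (-0.30) were not called. Of 17 genes of retinoic acid metabolism 3 rose, with CRABP2, which carries retinoic acid to its receptors, going from 16.1 and 17.1 CPM to 32.3 and 33.8 CPM (0.99 ± 0.12). Of 27 interferon response genes 4 rose, and 1 or 2 without day 2 replicate 1 or replicate 2. Among them IFITM1, an antiviral membrane protein, rose from 5.18 and 5.24 CPM to 9.16 and 9.39 CPM (0.83 ± 0.14).

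The other leading rises belonged to no list. FUT1, the fucosyltransferase that makes the H antigen, was at 1.53 and 1.87 CPM on day 2 and at 8.35 and 6.89 CPM on day 4 (2.16 ± 0.20, adjusted p = 0.000217). SCARA5, a receptor for ferritin, rose from 3.69 and 5.38 CPM to 14.6 and 14.9 CPM (1.71 ± 0.17), FEZ1, a transport adaptor of neurons, from 3.36 and 3.60 CPM to 12 and 9.70 CPM (1.64 ± 0.19), and the zinc finger gene ZC3H6 from 7.25 and 5.38 CPM to 20.1 and 17.8 CPM (1.58 ± 0.14). The symbol UQCR11 belongs to 2 genes of the table. The ID that rose, ENSG00000267059, went from 2.61 and 1.22 CPM to 5.22 and 9.58 CPM (1.93 ± 0.34), and how reads were shared with its namesake is uncertain.

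**Figure D4:**
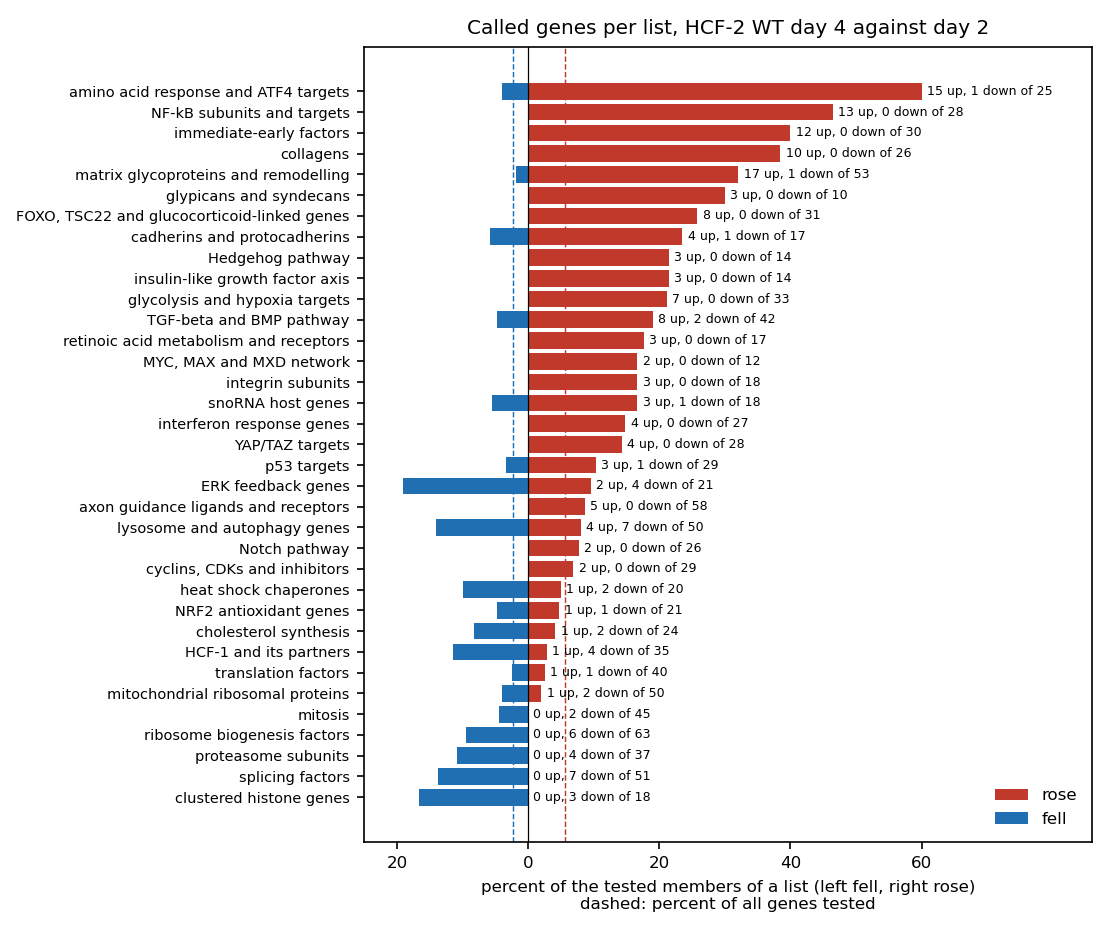
Percent of the tested members of each gene list that rose (red, to the right) or fell (blue, to the left) from day 2 to day 4 in HCF-2 WT cells, for lists with at least 2 calls, with the counts beside each bar and the percent of all tested genes dashed (5.63% rose, 2.25% fell). The amino acid response stands highest with 15 rises of 25, and clustered histones, splicing factors, proteasome subunits and ribosome biogenesis factors hold falls alone. Mitosis genes also hold falls alone, but only 2 of 45 tested.

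The falls included genes of ribosome assembly, splicing and protein breakdown, as well as of lysosomes, histones and ERK signalling. Of 63 ribosome biogenesis factors 6 fell, none of the other 57 was called, and 59 had a negative value, with a median of -0.28. UTP20 (chromosome 12, 101673883 to 101780396), part of the complex that processes the small subunit RNA, was at 202 and 211 CPM on day 2 and at 138 and 125 CPM on day 4 (-0.65 ± 0.09, edgeR adjusted p = 0.00118). NOL6, a nucleolar protein of the same complex, fell from 81.3 and 80.7 CPM to 49.3 and 57.3 CPM (-0.60 ± 0.09), and RRS1, a large subunit factor, from 43.1 and 40.1 CPM to 27.2 and 26.6 CPM (-0.63 ± 0.09). The number of falls was 4 to 6 without each of the other libraries and 13 without day 4 replicate 2. Of the structural proteins of the cytosolic ribosome, none of 78 was called by edgeR or DESeq2, 30 had an unadjusted p under 0.05, and 73 had a positive value, with a median of 0.19. That median was 0.12 without day 2 replicate 1 and 0.0756 without day 4 replicate 1, and without day 4 replicate 2 it was 0.26 with 3 proteins called as risen.

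Among splicing factors and proteasome subunits few members were called, all of them as falls. Of 51 splicing factors 7 fell and 44 were not called, with 48 negative values and a median of -0.23. SRSF6, a serine/arginine-rich regulator of exon choice, was at 363 and 359.6 CPM and then at 219.7 and 202 CPM (-0.78 ± 0.08, adjusted p = 0.00045), and HNRNPM, another regulator of exons, at 409 and 361 CPM and then at 254 and 247 CPM (-0.62 ± 0.10). Of 37 proteasome subunits 4 fell (3 to 6 when any of the 4 libraries was left out) and 36 had a negative value, with a median of -0.24. ADRM1, a ubiquitin receptor of the proteasome, fell from 104 and 108 CPM to 62.0 and 74.5 CPM (-0.64 ± 0.10), and PSMC3, an ATPase of its base, from 142 and 151 CPM to 99.9 and 99.6 CPM (-0.55 ± 0.08). With the GC trend removed PSMC3 had -0.46 and was no longer past the minimum.

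Chaperones and histones gave single genes. HSPA8, the constitutive HSP70, was at 2018 and 2169 CPM on day 2 and at 1451 and 1237 CPM on day 4 (-0.64 ± 0.09, adjusted p = 0.00191). Of 20 heat shock chaperones 2 fell and 1 rose, and 4 fell without day 4 replicate 1. Of 18 clustered histone genes 3 fell, led by HIST1H3D, from 97.0 and 102 CPM to 60.9 and 62.5 CPM (-0.69 ± 0.08, adjusted p = 0.00064), and 3 fell without any of the 4 libraries. Histone genes have near-identical copies, so counts of single copies are uncertain. The libraries hold poly(A) RNA, so these counts do not measure histone transcripts without a poly(A) tail. Lysosome and autophagy genes were divided, with 4 rises and 7 falls among 50 (4 falls without day 2 replicate 1 or day 4 replicate 1, and 1, 1 and 2 rises without day 2 replicate 1, day 2 replicate 2 and day 4 replicate 1). ATP6V0D1, a subunit of the proton pump, fell from 36.6 and 37.7 CPM to 20.7 and 23.3 CPM (-0.76 ± 0.10), and CTSA, a lysosomal protease, from 44.4 and 44.2 CPM to 27.3 and 28.9 CPM (-0.66 ± 0.09).

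The 14 largest falls included NCDN (chromosome 1, 36023074 to 36032875), a cytoplasmic protein of neurons, which dropped from 56.0 and 52.6 CPM to 22.3 and 24.5 CPM (-1.22 ± 0.10, adjusted p = 0.000151). POLR2A, the large subunit of RNA polymerase II, was at 80.2 and 89.9 CPM and then at 41.6 and 48.5 CPM (-0.92 ± 0.10, adjusted p = 0.000502). Of 21 tested ERK feedback genes 2 rose and 4 fell (2 falls without either day 2 library), with IER3, described above, and PHLDA1 (0.57) as the rises. ETV1, an ETS factor downstream of ERK, was at 35.4 and 38.0 CPM and then at 23.6 and 18.8 CPM (-0.79 ± 0.12), and DUSP5, a phosphatase that ERK induces against itself, at 32.0 and 31.7 CPM and then at 20.9 and 20.4 CPM (-0.62 ± 0.09). RNU12, the minor spliceosome U12 RNA, went from 8 and 7.67 CPM to 4.62 and 3.93 CPM (-0.87 ± 0.16). Libraries of poly(A) RNA do not measure U12 RNA without a tail. The symbol CHTF8 belongs to 2 genes, and the ID that fell, ENSG00000263203, went from 9 and 10.2 CPM to 4.02 and 2.57 CPM (-1.55 ± 0.28). Of the remaining genes among the 14 largest falls, PRR22, DOK3, SLFNL1, VPS9D1-AS1, FLJ27365, DOHH, CEBPE and LRRC4 had log2 fold changes of -0.89 to -1.24, and each lost its call without day 2 replicate 1 (adjusted p between 0.0568 and 0.187).

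HCFC1, the gene of HCF-1, was lower on day 4 than on day 2, as were methyltransferase genes of its list. These calls rested on day 2 replicate 1. Of 35 tested genes of HCF-1 and its partners 4 fell, 1 rose (THAP2, a zinc finger protein, 0.77) and 30 were not called. HCFC1 stood at 215 and 188 CPM on day 2 and at 100.4 and 142 CPM on day 4 (-0.73 ± 0.15, edgeR adjusted p = 0.00992). KMT2D, SETD1A and SETD1B, whose products methylate lysine 4 of histone H3, had -0.82 ± 0.17, -0.70 ± 0.15 and -0.87 ± 0.21. Without day 2 replicate 1 none of the 4 was called (adjusted p = 0.0902, 0.0896, 0.126 and 0.159, with log2 fold changes of -0.64, -0.69, -0.53 and -0.70), SETD1B was also lost without day 4 replicate 1 (0.0797), and without day 4 replicate 2 the number of falls in the list of 35 was 7. From day 1 to day 6, in libraries outside the contrast but within the same fit, the log2 fold changes of the 4 genes lay between -0.19 and 0.02. None was called. OGT, the glycosyltransferase that cleaves HCF-1, was at 283 and 274 CPM on day 2 and at 268 and 283 CPM on day 4 (-0.02 ± 0.08, adjusted p = 0.918). The cell cycle lists are given beside the shares of all tested genes, of which 5.63% rose and 2.25% fell. Of 29 cyclins, CDKs and inhibitors 2 rose, the CDK inhibitor CDKN1C (1.65 ± 0.37) and the factor E2F5 (0.64 ± 0.12), and neither was called without day 2 replicate 1. With an FPKM above 1 required in every HCF-2 WT library, 1 of 28 cyclins, CDKs and inhibitors rose. Of 45 mitosis genes 2 fell and of 45 replication genes 1, MCM5 (-0.55 ± 0.09). Of 24 cytokinesis and 45 DNA repair genes none was called by edgeR or DESeq2, with 3 and 10 at an unadjusted p under 0.05. Without day 2 replicate 1 or day 4 replicate 1 neither mitosis gene was called and 3 or 4 replication genes fell.

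Promoters of the called genes were searched for 6 motifs in all, and the shares are given as a description without a test. The E-box CACGTG lay in 21% of 305 promoters of fallen genes, 9.99% of 11219 promoters of tested genes and 5.38% of 743 promoters of risen genes. The ETS site CCGGAAG lay in 24.6%, 18.7% and 5.11% of the same sets. The AP-1 site TGANTCA was held by 4.26%, 4.43% and 5.38%, and the CCAAT box by 44.9%, 37.0% and 31.5%. For the NF-kB site the shares were 10.8%, 13.0% and 16.7%, and for the ATF4 element 0.328%, 1.65% and 1.88%. Of all 27305 promoters the E-box, the ETS site and the AP-1 site were in 7.43%, 10.7% and 7.76%. Fallen genes are GC-rich in their transcripts, and the part of base composition in these shares was not tested.

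The step from day 2 to day 4 was set against the step before it within HCF-2 WT. From day 1 to day 2, 5 genes rose and 52 fell. The sets called from day 2 to day 4 had leaned the other way in this earlier step. The 1066 later risers centred on -0.16 (interquartile range -0.32 to 0.02) and the 425 later fallers on 0.14 (0.02 to 0.26). With day 4 set against day 1 instead, 971 genes rose and 354 fell. The day 2 libraries enter the earlier and the later step with opposite sign. Genes selected on the later step therefore tend to lean the other way in the earlier one. How much of the lean comes from this selection was not tested. The change from day 2 to day 4 differed from that from day 1 to day 2 in 520 genes (2.75%), 315 of them higher. Both steps use the day 2 libraries, and without day 2 replicate 1 or replicate 2 the number was 5 or 6. The libraries of days 1 and 6 are not among the 4 compared. They entered the same fit, however, and helped to estimate the spread behind the calls. From day 1 to day 6, 2495 genes rose (13.2%) and 1522 fell (8.04%). Of the 1066 genes that rose from day 2 to day 4, 874 (82%) rose there too, 2 fell and 190 were not called, with a median log2 fold change of 1.04. They made up 35% of the 2495. Of the 425 falls, 242 (56.9%) fell from day 1 to day 6, 3 rose and 180 were not called, with a median of -0.60, and they made up 15.9% of the 1522. SLC7A11, ATF5, PLK1 and MKI67 were among the called genes that were not called from day 1 to day 6 (0.13, 0.26, -0.11 and 0.09), while TSC22D3 (2.85), GPC3 (2.2) and IGFBP5 (1.87), which binds insulin-like growth factors, had gone further by day 6.

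**Figure D5:**
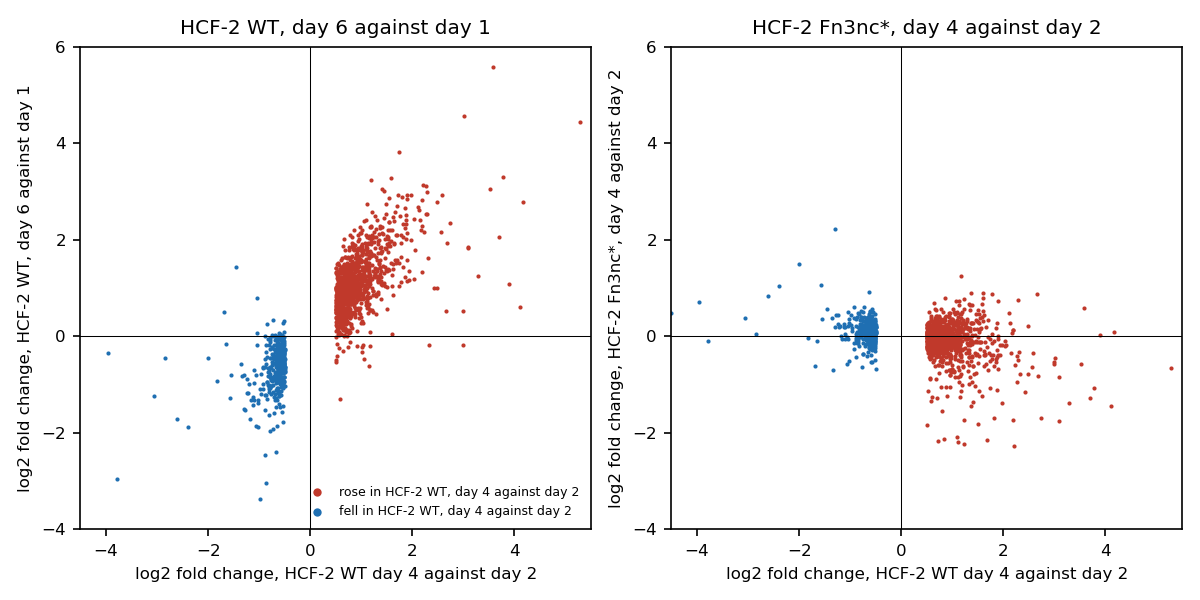
Log2 fold change of the called genes in 2 sets of libraries other than the 4 compared (vertical axes). Horizontal axes give their change from day 2 to day 4 in HCF-2 WT. The left panel shows day 6 against day 1 in HCF-2 WT, from the same fit, and the right panel day 4 against day 2 in HCF-2 Fn3nc*. Risers are red and fallers blue, and 12 genes lie outside the axes of each panel. On the left risers centre on 1.04 and fallers on -0.60, and on the right they centre on -0.02 and 0.10.

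The same days were then compared in HCF-2 Fn3nc* cells. This separate line makes its own induced form of HCF-2, so time on doxycycline, line and protein cannot be told apart. In HCF-2 Fn3nc* cells, 22 genes rose (0.116%) and 269 fell (1.42%). Of the 1066 HCF-2 WT risers 1 rose, 40 fell and 1025 were not called, with a median of -0.02, and of the 425 fallers 2 fell, 4 rose and 419 were not called, with a median of 0.10. The difference between the lines was tested directly in a fit of all 16 libraries. The change was higher in HCF-2 WT for 1370 genes (7.24%) and lower for 1282 (6.77%). Of the risers 636 (59.7%) passed with the higher change in HCF-2 WT, and of the fallers 341 (80.2%) with the lower. However, these tests use the same HCF-2 WT libraries as the calls. Among the 11844 genes that averaged at least 100 counts, GC content had opposite trends in the lines. Its Spearman correlation with the change was 0.40 in HCF-2 Fn3nc* and -0.22 in HCF-2 WT. With the GC trend of each library removed, the change was higher in HCF-2 WT for 1950 genes and lower for 1422. The part of GC in the differences of the called genes was not tested.

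Some of the largest differences came from a fall in HCF-2 Fn3nc* as well as a rise in HCF-2 WT. PPP1R15A, the subunit that dephosphorylates eIF2, was at 12.8 and 13.4 CPM on day 2 and at 29.1 and 27.2 CPM on day 4 in HCF-2 WT, but at 159.8 and 187 CPM and then at 37.1 and 39.4 CPM in HCF-2 Fn3nc*. The changes of 1.11 and -2.19 differed by 3.29 ± 0.13 (edgeR adjusted p = 2.19e-09), the lowest p among called genes. DNAH17, an axonemal dynein, differed by 3.46 ± 0.21 with the same shape, 71.9 and 90.0 CPM falling to 18.4 and 16.1 CPM in HCF-2 Fn3nc*. In ZC3H6, GADD45A, ARRDC4, TXNIP and TNFAIP3 the HCF-2 Fn3nc* value likewise fell (-1.23, -1.06, -0.50, -1.06 and -1.14). In IL8 (-0.57), ASNS (-0.07), STC2 (-0.12), MYC (0.01), TSC22D3 (0.01), HSPA8 (0.16) and NCDN (0.20) it was not called. SRSF6 was different. It fell in both lines, from 399.6 and 400.0 CPM to 256 and 259.6 CPM in HCF-2 Fn3nc* (-0.64), and the difference of -0.14 ± 0.09 did not pass (adjusted p = 0.306). By list, 17 of 25 ATF4 targets, 14 of 28 NF-kB genes, 15 of 30 immediate-early factors and 17 of 29 p53 targets had the higher change in HCF-2 WT, and 17 of 63 ribosome biogenesis factors, 12 of 51 splicing factors and 8 of 37 proteasome subunits the lower. Of the p53 targets 10 fell in HCF-2 Fn3nc*.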

How the data were processed

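Poly(A) RNA of 16 libraries was read as 125-nt single-end reads after a NEXTflex qRNA-seq preparation, with RNA of all samples extracted together. Per the authors' methods, reads were aligned with STAR to GRCh37 and the deposited expected counts and FPKM values per gene were estimated with RSEM 1.3.0, which shares ambiguous reads among genes. Whether the kit's molecular labels were used in counting, and whether counting used strand, are not stated in the labels or methods. Libraries were grouped by the line and day in their labels. Expected counts were rounded, the 18925 of 57820 genes whose deposited FPKM passed 1 in any library were tested, and edgeR 4.0.16 (R 4.3.3) was used with TMM and its quasi-likelihood test over the 8 HCF-2 WT libraries, 1 coefficient per day. Adjusted p-values are Benjamini-Hochberg values over all genes tested, and every adjusted p in the text is from edgeR. A gene was called where the adjusted p lay under 0.05 and the log2 fold change exceeded 0.5 in size. The difference between lines was fitted over all 16 libraries with no fold minimum. With 2 libraries against 2, an exact permutation test cannot go below p = 0.333.

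Totals of 20270033 to 31006448 expected counts per library limit the precision of genes of low level. Named genes were HCFC2, HCFC1 and OGT, the 14 largest rises and falls with a mean count of at least 100, up to 4 members of each list by lowest p in the main direction and 2 in the other, and the 6 called genes with the lowest p of the difference between lines. The largest rises and falls also needed both day 4 libraries beyond both day 2 libraries, so their lack of overlap was set by the rule. Clone names, read-throughs and LINC, MIR and SNOR symbols were passed over there and among the 6. A gene that this rule names is not reported here. Other genes of the lists named beside these (ATF4, CHAC1, RELA, RELB, NFKB1, NFKB2, BIRC3, the CXCL genes, the AP-1 genes, PHGDH, SHMT2, COL1A1, FKBP5, PER1, CDKN1A, MDM2, GAPDH, LDHA, PKM) were chosen after their values were seen. The comparison, lists and motifs were chosen with earlier results of these data known. Positions of genes are from GENCODE lifted to GRCh37, a different release from the one behind the counts. Alternatives were DESeq2 1.42.0, its size factors, other filters, other sets of libraries, no rounding, a replicate block, a crossed block, removal of a GC trend, no fold minimum, and leaving out each library. Scripts were tested on simulated data. Python 3.11.15 was used for lists and promoters and matplotlib 3.10.9 for figures.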

Additional observations from a re-analysis of the deposited data

Results flagged for a closer look

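The following results were singled out because a test found that an effect differed between groups. Between the lines, the change from day 2 to day 4 was higher in HCF-2 WT than in HCF-2 Fn3nc* for 1370 genes and lower for 1282, by the edgeR test of the difference over 16 libraries. Within HCF-2 WT, the step from day 2 to day 4 differed from the step from day 1 to day 2 in 520 genes, a number that was 5 without day 2 replicate 1 and 6 without day 2 replicate 2.

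Among the genes named, the difference between lines in log2 units was 4.1 for IL8, 1.42 for NFKBIA and 2.64 for TNFAIP3 of the NF-kB list. It was 1.2 for ASNS of the amino acid response and 3.29 for PPP1R15A, the eIF2 phosphatase subunit. For the FOXO-linked genes it was 1.87 for TSC22D3, 1.69 for ARRDC4 and 1.92 for TXNIP, and for the p53 target GADD45A it was 1.84. The collagen receptor DDR2 had 2.98, the dynein DNAH17 3.46 and the zinc finger gene ZC3H6 2.8. ZFAS1, a snoRNA host antisense to ZNFX1 whose reads cannot be told apart from its partner's if strand was not used, had 1.74. Of the genes lower on day 4 in HCF-2 WT, the difference was -1.43 for NCDN, -1.3 for ID3, -0.95 for HCFC1, -0.81 for HSPA8 and -0.6 for UTP20.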

How the results depend on the processing

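Of 1841 recalculated log2 fold changes of the 124 genes followed, 1754 kept their direction and side of the threshold, 86 kept their direction but lost the call and 1 changed sign (OGT, never called, which ranged from -0.0595 without day 4 replicate 2 to 0.0149 without day 4 replicate 1); of 228 recalculated differences between lines, 227 kept both and 1 gained a call. The counts were less stable. With each library left out in turn, rises ranged from 408 to 1122, falls from 206 to 918, rises shared with day 6 against day 1 from 377 to 927 and falls shared from 145 to 325. The genes with a higher change in HCF-2 WT ranged from 772 to 1974, those with a lower change from 621 to 1770, HCF-2 Fn3nc* rises from 5 to 61 and genes whose steps differed from 5 to 1798. Without the FPKM filter 747 genes fell, 6 rose in HCF-2 Fn3nc*, 1194 had steps that differed and 372 falls were shared with day 6 against day 1. DESeq2 gave 901 genes whose steps differed, and 692 genes rose when only the 4 libraries were fitted. With no fold minimum 1653 rose and 1285 fell. Replicate numbers were not used as pairs in the main fit. The replicate differences of days 2 and 4 had a correlation of -0.328 across genes. They also followed GC with opposite signs (-0.37 on day 2 and 0.70 on day 4), so this value cannot decide whether replicates were paired. The replicate block gave 955 rises, 398 falls, 11 rises in HCF-2 Fn3nc* and 293 genes whose steps differed. The crossed pairing gave 1184 rises and 499 falls. The crossed pairing, the GC correction and the fit without the 2 libraries with the most genes were chosen after seeing the data. That fit gave 942 falls, and with the GC trend removed 10 genes rose in HCF-2 Fn3nc* and 1848 had steps that differed. The GC correction ended the calls of PSMC3, MVK, GAS5, MKI67, PLK1, MCM5, EIF4G1 and EIF4A2. The cause of these changes was not tested.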
